A study of Mus musculus with 6 samples.

Results

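Ionotropic glutamate receptor subunits are the glutamate-gated ion channels of excitatory synapses, and 8 of their genes were followed here: the AMPA receptor genes Gria1, Gria2, Gria3 and Gria4 and the NMDA receptor genes Grin1, Grin2a, Grin2b and Grin2c. A probe set was taken for a member when the platform annotation gives it exactly 1 gene symbol and that symbol is in the list. This found 11 probe sets for 7 of the 8 genes, among 12422 probe sets and 8251 named genes in all. Grin1 was not analysed here, because no probe set with 1 symbol carries its name. Gria1 has 2 probe sets, Gria2 has 4, and the others have 1 each; the probe set with the highest mean stands for its gene.

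The values are linear intensities from 6 mouse spinal cord arrays, 1 for each of 3 genotypes at 2 ages. The G93A-SOD1 animals bore a transgene for the G93A form of superoxide dismutase 1, known from familial amyotrophic lateral sclerosis, the WT-SOD1 animals bore one for the wild-type form, and the nontransgenic mice had none; each genotype was taken at 110 and at 75 days of age. Strain labels name B6SJL for 5 arrays and are missing for WT-SOD1 at 110 days, and the G93A-SOD1 label ends in an added H at 110 days. RNA came from 4 spinal cords per array, each array was hybridised once, and the promoter of the transgenes and the sex of the mice are not given in the sources used here. Per the submitters, G93A-SOD1 mice had no symptoms at 75 days and showed tremor and partial paralysis at 110 days, while WT-SOD1 mice stayed healthy, so the 4 nontransgenic and WT-SOD1 arrays are called disease-free.

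AMPA receptors carry most fast excitatory current, and NMDA receptors pass current mainly when glutamate binds while the membrane is depolarised, which lets calcium in. The subunit encoded by Gria2 keeps AMPA receptors largely closed to calcium, because its messenger is edited at the pore site by the deaminase ADAR2, the product of Adarb1. Motor neurons are known to be sensitive to calcium entry through AMPA receptors, which is why these subunits are studied in amyotrophic lateral sclerosis. An array of this kind reads messenger level, not editing, and in whole cord fewer cells of a type and less RNA per cell cannot be told apart.

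The sequences below are RefSeq promoter windows (build GRCm38.p6), from 250 bases before to 50 after the annotated start. They belong to Gria2, Gria4 and Grin2c, the 3 measured members for which a window was found. In 6 of the 7 measured members, Gria4 and Grin2c among them, the WT-SOD1 110-day and nontransgenic 75-day arrays were highest, and in Gria2 they were not. Among all probe sets 9.88% had this order. Gria3 is counted in the 6, but its order carries no information. Gria4 lay near background on every array. Whether the order has to do with the promoters was not tested. The windows are written 5′ to 3′ on the strand of the gene. Capitals mark every match, on either strand, to the GC box (GGGCGG) or the core of NRF1 sites (TGCGCA).
Gria2, chr3:80802786-80803085, minus strand: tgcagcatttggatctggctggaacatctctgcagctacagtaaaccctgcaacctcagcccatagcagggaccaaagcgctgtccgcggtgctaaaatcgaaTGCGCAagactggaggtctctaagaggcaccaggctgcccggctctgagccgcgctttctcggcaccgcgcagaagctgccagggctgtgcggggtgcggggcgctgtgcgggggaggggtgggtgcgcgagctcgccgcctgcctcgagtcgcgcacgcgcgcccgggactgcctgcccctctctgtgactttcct
Gria4, chr9:4796185-4796484, minus strand: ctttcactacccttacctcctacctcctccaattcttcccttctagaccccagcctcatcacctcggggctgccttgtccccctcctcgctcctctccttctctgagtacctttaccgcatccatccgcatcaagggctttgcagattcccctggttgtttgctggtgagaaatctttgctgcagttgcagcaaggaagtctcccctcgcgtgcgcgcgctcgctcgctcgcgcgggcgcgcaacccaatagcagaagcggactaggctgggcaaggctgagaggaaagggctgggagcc
Grin2c, chr11:115267194-115267493, minus strand: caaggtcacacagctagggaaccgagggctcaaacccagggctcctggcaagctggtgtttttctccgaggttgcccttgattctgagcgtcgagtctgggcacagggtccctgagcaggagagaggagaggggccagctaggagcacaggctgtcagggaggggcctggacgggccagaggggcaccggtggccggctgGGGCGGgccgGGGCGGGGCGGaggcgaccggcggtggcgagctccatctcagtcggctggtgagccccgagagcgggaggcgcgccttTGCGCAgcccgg

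The Grin2c window holds 3 GC boxes, the last 2 of which overlap, and 1 NRF1 match. The Gria2 window holds 1 NRF1 match and no GC box, and the Gria4 window holds neither. Among 32851 promoter windows of this length 35.7% hold a GC box and 7.76% an NRF1 match. A part of the REST site (TTCAGCACC, in 0.371% of all windows) and the cyclic AMP element (TGACGTCA, in 1.79%) were searched too, and neither lies in these windows. The motifs were picked after these windows had been read, and a longer form of the NRF1 site, searched first, matched the Gria2 window but not the Grin2c one. Promoter windows were found for 4 of the 8 genes, and a match of letters is a description of the window, not a bound site.

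Depth of signal set what could be read. The 25th percentile of all values, 31, was used as a floor under which values have no order, and a probe set was tested only when at least 1 array lay above the pooled median of 79.7. Representative probe sets of Gria1, Gria2 and Grin2c passed on all 6 arrays. Those of Gria4, Grin2a and Grin2b lay between floor and median on every array and are near background, and that of Gria3 lay under the floor on 5 of 6 arrays. Tests therefore cover 3 of the 7 measured genes, and the other 4 are given as values.

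Array medians ran from 77.7 to 80.9. The WT-SOD1 110-day and nontransgenic 75-day arrays stood apart from the rest: the mean of 9 bacterial spike-in controls was 1590 and 1198 there, against 645 to 850.3 on the other 4. Of 11 measured cerebellar markers 9 were highest on the same arrays. The summed intensity of the 11 was 3531 and 3948 in G93A-SOD1 cord at 110 and 75 days, 6826 and 6310 on this high pair, and 4769 and 4905 on WT-SOD1 75-day and nontransgenic 110-day arrays. The largest part came from Pvalb, which did not have this order. It read 2186 and 2614 in G93A-SOD1 cord, 2931 and 2968 on the high pair, and 3034 and 2678 on the remaining arrays. Gabra6, a receptor subunit gene of cerebellar granule cells, read 21.3 and 25.2 in G93A-SOD1 cord, 429 and 290.2 on the high pair, and 44.8 and 85.5 on the remaining arrays; none of the 11 markers was under the floor on all arrays. Of 17 measured Hox genes, which mark spinal cord, 11 passed the filter; the summed intensity of all 17 was 2477 and 2732 on the G93A-SOD1 arrays and 2366 to 2520 on the disease-free ones. The mouse gene Sod1 read 1716 and 1738 in G93A-SOD1, 1906 and 1583 in WT-SOD1 and 1498 and 1037 in nontransgenic cord at 110 and 75 days. Whether its probe set also reads the transgene messenger was not tested.

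Among the AMPA receptor genes, Gria2 gave the firmest signal and showed no difference that passed the test. Its representative probe set, 92947_s_at, read 387 in G93A-SOD1 cord at 110 days, against 467 in WT-SOD1 and 416 in nontransgenic cord of that age. At 75 days it read 498 in G93A-SOD1, against 451 in WT-SOD1 and 475 in nontransgenic cord. The G93A-SOD1 array was thus the lowest of the 6 at 110 days and the highest at 75 days. The log2 difference from disease-free cord was -0.19 ± 0.14 at 110 days (SE of the limma fit, adjusted p = 0.818) and 0.10 ± 0.14 at 75 days (adjusted p = 0.839). The change between ages, tested directly, was -0.29 ± 0.20 (adjusted p = 0.991). The 95% interval at 110 days spans a 0.696- to 1.11-fold level.

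**Figure D1:**
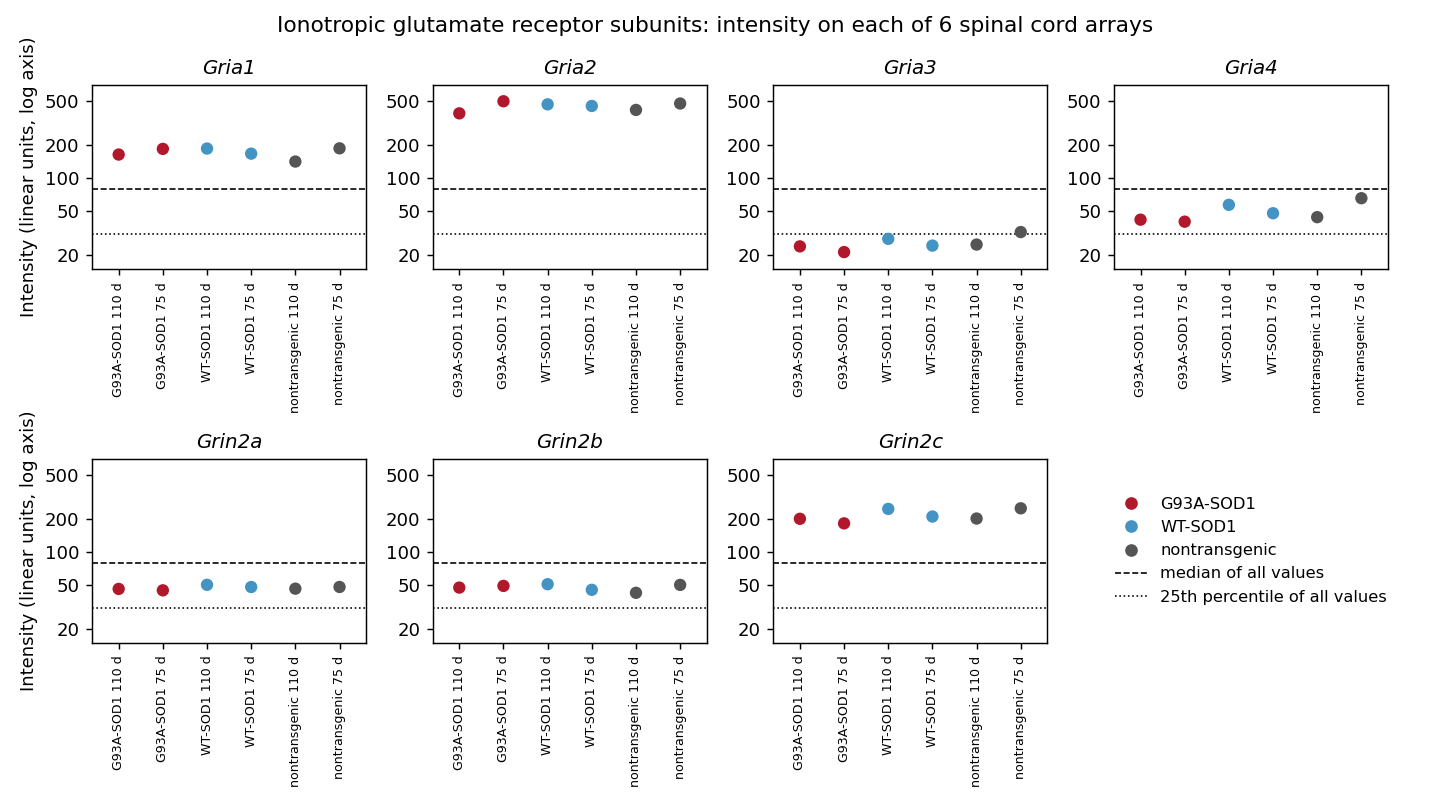
Intensity (linear units on a log axis) of the probe set that stands for each of 7 receptor genes, 1 point per array, with dashed and dotted lines at the median (79.7) and the 25th percentile (31) of all values. Gria1, Gria2 and Grin2c lie above the median on all 6 arrays, Gria4, Grin2a and Grin2b between the lines, and Gria3 under the lower line on 5 arrays.

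A different Gria2 probe set read lower on both G93A-SOD1 arrays. On 92945_at the G93A-SOD1 arrays read 73.0 at 110 days and 66.9 at 75 days, against 98.9 and 86.3 in WT-SOD1 and 105 and 105.3 in nontransgenic cord. Both G93A-SOD1 values lay below all 4 disease-free ones. The log2 difference was -0.48 ± 0.16 at 110 days (adjusted p = 0.329) and -0.51 ± 0.16 at 75 days (adjusted p = 0.494), so neither passed over all probe sets, although the unadjusted p were 0.0203 and 0.0156. Of 6737 tested probe sets 10.3% and 9.86% had an unadjusted p under 0.05 at these ages. This probe set is close to the filter, above the median on 4 arrays only, and those 4 are the disease-free ones: it passed the filter only through the group where it is higher.

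The remaining Gria2 probe sets add little. The near-background 92946_f_at read 51.9 and 66.0 in G93A-SOD1, 68.1 and 54.9 in WT-SOD1 and 56.0 and 62.2 in nontransgenic cord at 110 and 75 days, and it placed the G93A-SOD1 arrays much as the representative did, lowest at 110 days and above both disease-free values at 75 days. The fourth, 162076_r_at, stayed between 4.90 and 5.67, far under the floor.

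Gria1, which encodes the AMPA subunit whose synaptic insertion accompanies potentiation, also gave discordant probe sets. The representative 92943_at read 164 and 184 in G93A-SOD1, 186 and 167 in WT-SOD1 and 142 and 187 in nontransgenic cord at 110 and 75 days. Both G93A-SOD1 values lay inside the disease-free range, with log2 differences of 0.01 ± 0.19 at 110 days (adjusted p = 1.000) and 0.06 ± 0.19 at 75 days (adjusted p = 0.940). The 95% intervals allow a 0.743- to 1.37-fold level at 110 days and a 0.768- to 1.42-fold level at 75 days.

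The other Gria1 probe set, 92944_at, read 127 and 115 in G93A-SOD1, against 139.8 and 154 in WT-SOD1 and 148 and 169 in nontransgenic cord. Here both G93A-SOD1 arrays were again below every disease-free array. The log2 difference was -0.18 ± 0.14 at 110 days (adjusted p = 0.827) and -0.49 ± 0.14 at 75 days (adjusted p = 0.460, unadjusted p = 0.00935). What the probes of either set bind within the Gria1 and Gria2 transcripts is not given in the files used here, so which of the discordant readings describes the messenger as a whole was not tested.

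**Figure D2:**
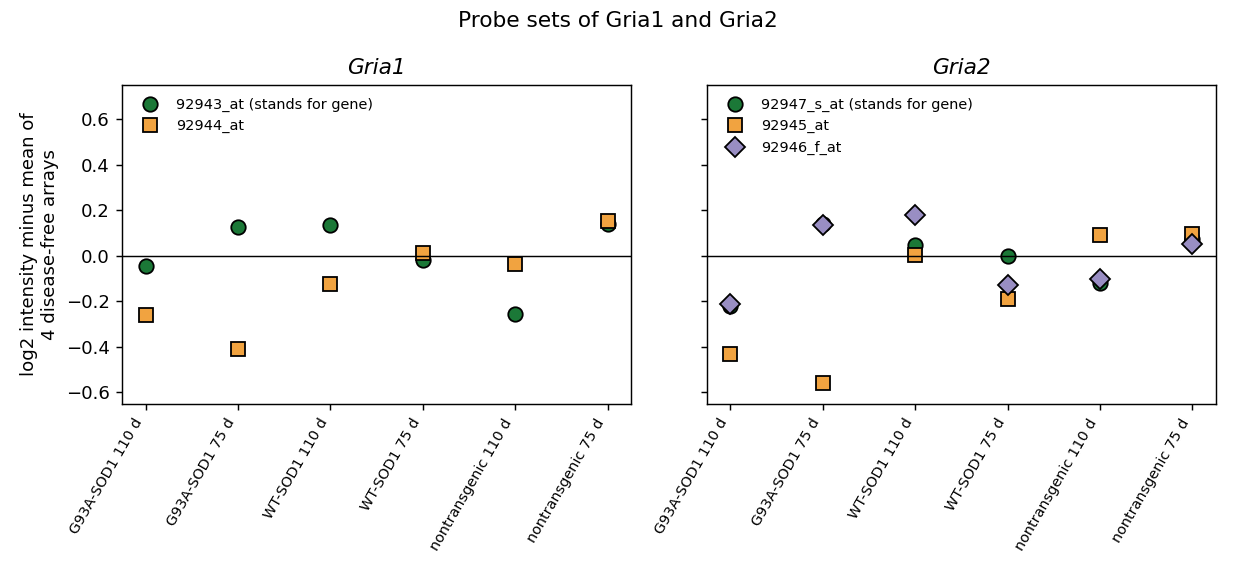
Log2 intensity of each Gria1 and Gria2 probe set minus its own mean over the 4 disease-free arrays, by array; 162076_r_at, under the floor throughout, is left out. The squares, 92944_at for Gria1 and 92945_at for Gria2, are lowest on the G93A-SOD1 arrays, while the circles that stand for the genes are not lowest on both.

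Gria4, a subunit of fast-gating AMPA receptors, read 42.1 and 40.4 in G93A-SOD1, 57.4 and 48.2 in WT-SOD1 and 44.4 and 65.9 in nontransgenic cord at 110 and 75 days. The G93A-SOD1 values were the lowest, and the WT-SOD1 110-day and nontransgenic 75-day values the highest. The log2 difference from disease-free cord was -0.26 at 110 days and -0.48 at 75 days, without a test because no array reached the median. Against the disease-free array of lower spike-in level alone it was -0.08 at 110 days and -0.25 at 75 days.

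Gria3, an X-linked AMPA subunit gene, read 24.1 and 21.4 in G93A-SOD1, 28.2 and 24.5 in WT-SOD1 and 25.05 and 32.5 in nontransgenic cord. All but the last lie under the floor, so their order carries no information.

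Of the 3 measured NMDA receptor genes among the members, Grin2c alone passed the filter. It encodes a subunit best known from cerebellar granule cells and from some glia, where it lowers the sensitivity of the receptor to magnesium block. It read 199.7 and 182 in G93A-SOD1, 246 and 209 in WT-SOD1 and 201 and 249 in nontransgenic cord at 110 and 75 days. Both G93A-SOD1 values were below all disease-free ones, but at 110 days the distance to the nontransgenic array was about 1 unit. The log2 difference was -0.15 ± 0.18 at 110 days (adjusted p = 0.942) and -0.33 ± 0.18 at 75 days (adjusted p = 0.582), with 95% intervals of 0.672- to 1.20-fold and 0.594- to 1.07-fold. With a covariate for spike-in level these became 0.05 and -0.17.

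Grin2a and Grin2b encode the glutamate-binding subunits that dominate adult and early forebrain receptors. Grin2a read 46.25 and 44.9 in G93A-SOD1, 50.4 and 48.1 in WT-SOD1 and 46.5 and 48.2 in nontransgenic cord at 110 and 75 days. Grin2b read 47.5 and 49.3 in G93A-SOD1, 51.0 and 45.4 in WT-SOD1 and 42.6 and 50.3 in nontransgenic cord. Highest over lowest was 1.12-fold for Grin2a and 1.20-fold for Grin2b, near background, and their log2 differences were -0.07 and 0.03 at 110 days and -0.10 and 0.04 at 75 days, with no test.

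Counted over the representative probe sets, 0 of 3 tested members passed at 110 days in the limma fit with Benjamini-Hochberg adjustment, where 1.51% of all tested probe sets did, and 0 of 3 passed at 75 days, where 0% did. None of the 3 had an unadjusted p under 0.05 at either age. Their median log2 difference was -0.15 at 110 days and 0.06 at 75 days, beside -0.02 and -0.04 over 5199 tested genes. Both G93A-SOD1 arrays lay below all 4 disease-free arrays for 4 of the 7 measured members, Gria3, Gria4, Grin2a and Grin2c. Among all 12422 probe sets this share was 11.8%. Only Grin2c of these passed the filter, and Gria3 lay mostly under the floor, so its order carries no information. The 110-day margin to nontransgenic cord was narrow for Grin2a (46.25 against 46.5) and Grin2c (199.7 against 201). Set only against the disease-free arrays of lower spike-in level, WT-SOD1 at 75 and nontransgenic at 110 days, the count was 4, with 22.3% over all probe sets. It could not have been lower, because these arrays are among the 4 disease-free ones.

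**Figure D3:**
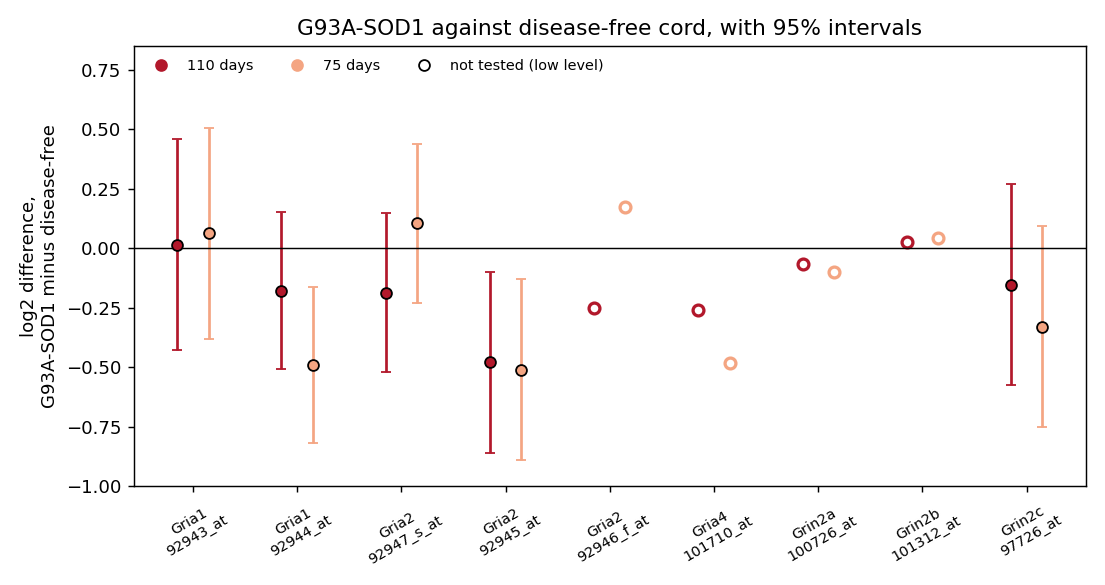
Log2 difference of G93A-SOD1 from the mean of the 2 disease-free arrays of its age, at 110 days (dark) and 75 days (light), for each probe set never under the floor. Bars are 95% intervals of the limma fit, and open points were not tested; intervals of the representatives of Gria1, Gria2 and Grin2c span 0, while both of 92945_at, which passed the filter only through the disease-free arrays, and the 75-day one of 92944_at lie below it without an adjusted p under 0.05.

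The remaining comparisons gave no calls among the members either. For the difference between ages in the G93A-SOD1 effect 0 of 3 passed (0.416% of all tested probe sets), and for disease-free cord at 110 against 75 days 0 of 3 passed (0.0148%), with log2 differences of -0.12 for Gria1, -0.07 for Gria2 and -0.04 for Grin2c. For WT-SOD1 against nontransgenic cord 0 of 3 passed (0.104%), with log2 differences of 0.12 for Gria1, 0.05 for Gria2 and 0.02 for Grin2c (SE 0.19 each, adjusted p = 1). None of the 3 had an unadjusted p under 0.05 in these comparisons.

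Most members shared an order of arrays. In 6 of the 7, all but Gria2, the WT-SOD1 110-day and nontransgenic 75-day arrays were the highest of the 6, by under 2 units for Gria1, Grin2a and Grin2b, narrowest for Grin2a (48.17 in nontransgenic cord against 48.11 in WT-SOD1 cord at 75 days), and with values mostly under the floor for Gria3. The other Gria1 probe set, 92944_at, did not share this order: its WT-SOD1 110-day value (139.81) was the lowest of the disease-free ones. Over all probe sets 9.88% had this order. The same arrays carried the higher spike-in signal, and 9 of 11 measured cerebellar markers had the order too, among them Cbln1, the gene of a granule cell synapse organiser, at 656 and 697 on these arrays, against 415 and 485 for WT-SOD1 at 75 and nontransgenic at 110 days. The part of tissue composition and of array signal in the members' order was not tested. The differences within the disease-free pairs of each age, which hold this order, are part of the residual spread behind the standard errors given above.

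**Figure D4:**
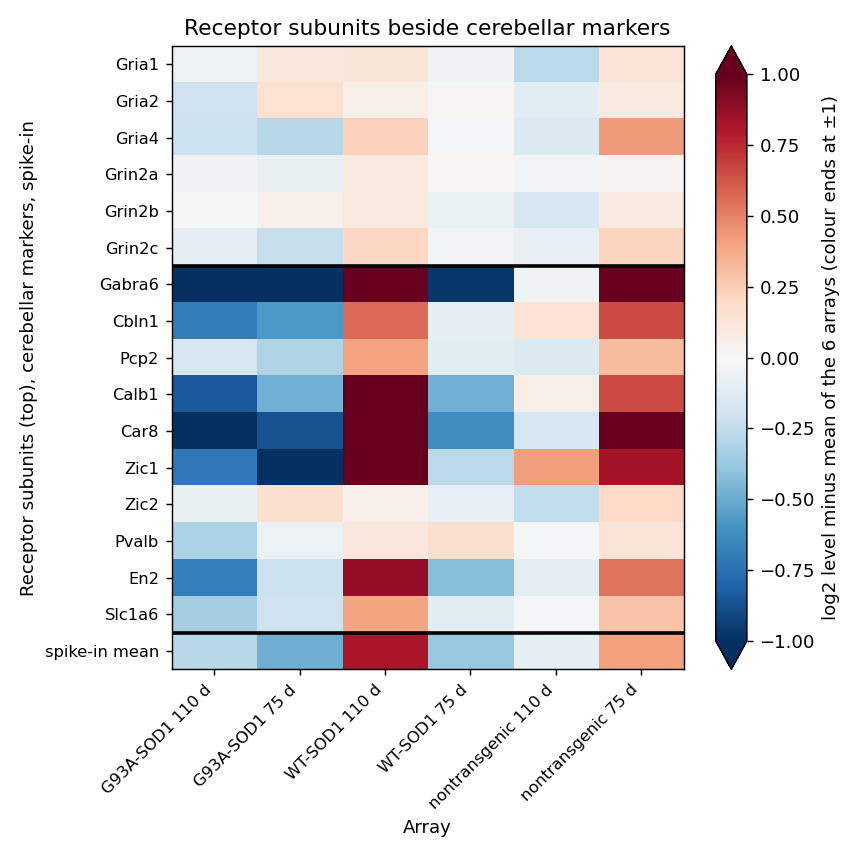
Log2 level minus the mean of the 6 arrays for 6 receptor genes (top), 10 tested cerebellar markers and the spike-in mean (bottom row), with arrays as columns; the colour scale ends at ±1. The WT-SOD1 110-day and nontransgenic 75-day columns are the highest for Gria4 and Grin2c as for Gabra6, Car8 and the spike-in mean, with a smaller range in the receptor genes.

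Genes most like each tested member across the 6 arrays were ranked by Pearson correlation of log2 level among 1370 genes with a range of at least 0.5 log2 units. For Grin2c these were Slc12a5, encoding the neuronal chloride exporter KCC2 (r = 0.98), the Purkinje cell gene Pcp2 (r = 0.98) and Paxbp1 (r = 0.93), and Gabra6 ranked 5th (r = 0.92). For Gria2 they were Pick1, whose product binds the tail of the Gria2 subunit (r = 0.93), Pard6a (0.92) and Zfp574 (0.90). For Gria1 they were Tlx2, Sox17 and Ctrl (0.94 each). Gabra6 ranked 196th for Gria1 (r = 0.36) and 248th for Gria2 (r = 0.33). Slc12a5 and Paxbp1 passed the filter only through the WT-SOD1 110-day and nontransgenic 75-day arrays, where Grin2c was also highest. Gabra6 passed it only through disease-free arrays. With 6 arrays, high values among so many genes describe likeness only, and every gene was read from the same 6 hybridisations.

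Other genes of glutamate signalling were read from lists chosen with results of these data known. Of 10 further ionotropic receptor genes 5 were measured and 3 tested, and 0 passed at either age. Grin2d, the NMDA subunit of slow-closing receptors, read 116 and 127 in G93A-SOD1, 123 and 114 in WT-SOD1 and 94.0 and 118 in nontransgenic cord. The kainate receptor gene Grik5 stood at a log2 difference of 0.18 and the delta receptor gene Grid1 at -0.07 at 110 days. Of 8 metabotropic receptor genes only Grm8 was measured, near background, at 35.7 and 41.2 in G93A-SOD1 against 42.2 to 49.0 on the disease-free arrays.

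Of 41 genes for anchoring, trafficking and editing of the receptors 18 were measured and 16 tested; 0 passed at 110 days or at 75 days, and their median log2 difference at 110 days was -0.09. Adarb1, the editing enzyme of the Gria2 pore site, read 309.6 and 308 in G93A-SOD1, 406 and 408 in WT-SOD1 and 586 and 440.3 in nontransgenic cord at 110 and 75 days. Both G93A-SOD1 values were the lowest, with a log2 difference of -0.66 (adjusted p = 0.318) at 110 days and -0.46 at 75 days. Camk2b, a calcium-dependent kinase of the postsynaptic density, read 784 and 665 in G93A-SOD1, 976 and 984 in WT-SOD1 and 1313 and 1006 in nontransgenic cord (-0.53, adjusted p = 0.371). Nptx1, a secreted protein that clusters AMPA receptors, stood at -0.48 at 110 days (adjusted p = 0.246) and -0.04 at 75 days. In this list 4 of 18 genes had both G93A-SOD1 arrays below all disease-free ones: Adarb1, Camk2b, Nsf and Adar, the last pair named after their values were seen. The share over all probe sets was 11.8%, and Adar, at 68.95 and 67.4 in G93A-SOD1 cord against 86.9 to 103 in disease-free cord, passed the filter only through the disease-free arrays.

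Of 18 genes of glutamate supply and removal 11 were measured and 8 tested, and 1 fell at 110 days. Of all 6737 tested probe sets 9 fell at that age. This was Slc38a2, a neutral amino acid transporter gene whose protein can carry glutamine, with 239.6 and 239 in G93A-SOD1, 397 and 264 in WT-SOD1 and 465 and 268 in nontransgenic cord at 110 and 75 days. Its log2 difference at 110 days was -0.84 ± 0.15 (adjusted p = 0.0478), and at that age the disease-free arrays stood above those of 75 days while the G93A-SOD1 array did not. The Purkinje cell transporter gene Slc1a6 stood at -0.54 (adjusted p = 0.471) and Slc1a4 at 0.35 (adjusted p = 0.608).

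Cell type markers give the setting of these values, at 110 days unless stated. At that age 93 of all 6737 tested probe sets rose and 9 fell. Of 12 tested neuron genes 1 fell, Nefm, the middle neurofilament chain (log2 difference -0.82, adjusted p = 0.0301), and their median was -0.43. The heavy chain Nefh stood at -0.72 (adjusted p = 0.112). The synaptic vesicle gene Syt1 had a larger difference of -1.26 (adjusted p = 0.170) at 110 days and -1.5 (adjusted p = 0.440) at 75 days, but passed the filter only through the disease-free arrays, with 73.2 and 67.3 in G93A-SOD1, 138 and 156 in WT-SOD1 and 225 and 232 in nontransgenic cord. At 75 days, where the second probe sets of Gria1 and Gria2 were low, 0 of 12 neuron genes passed, with a median of -0.11. Map2 stood at -1.27 (adjusted p = 0.398) and Nefl at -0.71 (adjusted p = 0.444). Also negative were Gap43 at -0.22, Tubb3 at -0.20, Snap25 at -0.20 and Uchl1 at -0.02. The rest were positive: Syp at 0.47, Eno2 at 0.09, Nefm at 0.06, Stmn2 at 0.03 and Nefh at 0.02. Map2, Nefl, Gap43, Tubb3, Snap25, Uchl1, Syp, Eno2 and Stmn2 were named after their values were seen. Summed neuron intensity at 110 days was 9768 in G93A-SOD1, against 12561 in WT-SOD1 and 13815 in nontransgenic cord. Of 4 tested motor neuron genes 0 passed; Slc18a3, the vesicular acetylcholine transporter, stood at -0.18. Of 10 tested microglia genes 9 rose, among them Tyrobp at 2.41 and C1qb at 2.36. Lyz2 stood at 2.84, but Lyz2 and Aif1 passed the filter only through the G93A-SOD1 110-day array, with Lyz2 at 289.6 there and 31.4 to 48.7 on the other 5, close to the floor. Of 7 astrocyte genes 1 rose, Gfap at 1.25, while the median of the 7 was -0.03. Of 8 tested oligodendrocyte genes 0 passed. The summed intensity of the 7 measured receptor subunits was 911 in G93A-SOD1, 1085 in WT-SOD1 and 916 in nontransgenic cord at 110 days, and 1019.8, 994 and 1107 at 75 days. The part of cell composition in the members' values was not tested.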

How the data were processed

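Messenger RNA of mouse spinal cord was read on 6 Affymetrix arrays. The authors deposited a linear intensity for every probe set on every array; the sources used here do not state how probes were summarised or arrays scaled. Of 12488 rows, 66 controls were set aside. Intensities were used as deposited, raised to a floor of 31 (the 25th percentile) and put on a log2 scale. Tests ran on the 6737 probe sets with at least 1 array above the pooled median of 79.7, with limma 3.58.1 in R 4.3.3 (lmFit, eBayes; Benjamini-Hochberg at 0.05). The fit had 4 means, G93A-SOD1 and disease-free at each age, with 2 residual degrees of freedom (prior 5.13). WT-SOD1 was compared with nontransgenic on 4 arrays with age as a term and 1 residual degree of freedom; there the estimated spread was the same for all probe sets (SD 0.193 on the log2 scale), so those p-values do not use a gene's own spread. No genotype and age has a replicate: p-values of the 4-mean fit rest on the spread between WT-SOD1 and nontransgenic arrays of an age, moderated by the prior (SD 0.124), and each G93A-SOD1 array is assumed to vary like them. The number of arrays limits the precision.

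The annotation gives 1 symbol to 10833 of 12422 probe sets, several to 396 and none here to 1193. Named genes are the members and all their probe sets, Sod1 and the 3 genes most like each tested member. They also include up to 3 tested genes per list (calls first, then the largest difference at 110 days). Gabra6, Cbln1, Car8, Pvalb, Grm8, Nsf, Adar, Aif1, Map2, Nefl, Gap43, Tubb3, Snap25, Uchl1, Syp, Eno2 and Stmn2 were named after their values were seen. The members and lists were chosen with earlier results of these data known. The fit was tested on simulated data. Alternatives covered filter, floor, pseudocount, scaling, a genotype or spike-in term, each disease-free array left out, and other probe sets.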

Additional observations from a re-analysis of the deposited data

Results flagged for a closer look

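On the representative probe sets the difference between WT-SOD1 and nontransgenic cord had opposite signs at the 2 ages for 6 of the receptor genes. Each group has 1 array, so the change was not tested. The higher array of each age, WT-SOD1 at 110 days and nontransgenic at 75 days, is the one with the higher spike-in mean (1590 and 1198). The sign change therefore cannot be told apart from a difference between these arrays. For Gria1, Gria4, Grin2a, Grin2b and Grin2c it is the array order already described. Gria2 did not have that order, as its G93A-SOD1 75-day array was the highest (498). The log2 difference, WT-SOD1 minus nontransgenic, was 0.39 at 110 days and -0.16 at 75 days for Gria1, 0.17 and -0.074 for Gria2, and 0.37 and -0.45 for Gria4. It was 0.12 and -0.0018 for Grin2a, where the 75-day levels of 48.11 and 48.17 are practically equal, 0.26 and -0.15 for Grin2b, and 0.29 and -0.25 for Grin2c. Of all 12422 probe sets 35.3% were likewise higher in WT-SOD1 at 110 days and lower at 75 days. The other tested probe sets of Gria1 and Gria2 were negative at both ages. At 110 and 75 days 92944_at of Gria1 gave -0.085 and -0.14, and 92945_at of Gria2 gave -0.086 and -0.29.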

How the results depend on the processing

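No paired analysis was possible because each genotype and age has 1 array. Under every alternative run, 0 receptor genes passed in any of the 5 comparisons, also with the other probe sets of Gria1 and Gria2 in place of the representatives. The fit with a spike-in covariate, and the fits that leave out an array, could not be made for WT-SOD1 against nontransgenic, where no residual degree of freedom is left. Directions were less stable. With 1 disease-free array left out in turn, Gria1 ran from -0.18 (without nontransgenic 110 days) to 0.21 for G93A-SOD1 at 110 days, from -0.017 (without WT-SOD1 75 days) to 0.14 at 75 days, and from -0.24 to 0.15 (without WT-SOD1 110 days; 0.032 without WT-SOD1 75 days) for the change with age. For disease-free age the range was -0.32 to 0.073 for Gria1 and -0.16 to 0.012 for Gria2, both positive without nontransgenic 110 days alone, and -0.18 to 0.11 for Grin2c, positive without nontransgenic 110 days and, at 0.084, without nontransgenic 75 days. At 110 days G93A-SOD1 differences ran from -0.30 (without nontransgenic 110 days) to -0.0079 (without WT-SOD1 110 days) for Grin2c and from -0.27 to -0.10 (same arrays) for Gria2; at 75 days Grin2c ran from -0.45 (without WT-SOD1 75 days) to -0.21 (without nontransgenic 75 days) and Gria2 from 0.068 to 0.14 (same arrays); the change with age ran from 0.032 to 0.32 (without nontransgenic and WT-SOD1 110 days) for Grin2c. Grin2c at 110 days was 0.051 with a spike-in covariate. The other Gria1 probe set gave -0.18, -0.49, 0.31 and -0.11 for G93A-SOD1 at 110 and 75 days, the change with age and WT-SOD1. The other Gria2 probe set gave -0.51 at 75 days, 0.030 for the change, 0.10 for age and -0.19 for WT-SOD1. The cause was not tested. Calls over all probe sets ran from 42 to 591 for G93A-SOD1 at 110 days (102 as reported), from 0 to 116 at 75 days (0), from 2 to 135 for the change (28), from 0 to 17 for age (1) and from 0 to 7 for WT-SOD1 (7). Signal near the floor limits Gria3, Gria4, Grin2a and Grin2b. The comparison with the arrays of lower spike-in level alone was chosen after seeing the data.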
